A study of Mus musculus with 4 samples.

Results

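Parp1, Parp2, Parp3, Parp9, Parp10, Parp11, Parp12 and Parp14, with the ubiquitin ligase gene Dtx3l, were followed through 8 RNA-seq libraries of HT22 cells. HT22 is an immortalised cell line that came from mouse hippocampal neurons. The 9 genes were taken by symbol from the deposited count table, where they make up 9 of 16846 rows. These genes and the gene lists used below were chosen with earlier results of these data known. Their shares beside those of all genes are therefore descriptions. The study lowered or raised the long noncoding RNA Ntoco to look for signalling pathways connected with it. The 4 groups were an Ntoco knockdown by short hairpin RNA (shRNA), an Ntoco overexpression, an empty vector and a control shRNA, with 2 libraries each. Knockdown cells are compared with shRNA control cells, and overexpressing cells with vector cells. The empty vector and the control shRNA are both controls, and their comparison shows how far the 2 control arms lie apart.

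Several features limit these groups as a model. In the sample titles the cells are called HT22 (shRNA control), HT23 (knockdown), HT24 (vector) and HT25 (overexpression), while both cell line and source are HT22 throughout. The overexpression is marked Lv in its title, whereas the columns of the tables call the empty vector pcDNA, a plasmid name, so the route of delivery is uncertain. GEO lists 1 sample per group and the tables hold 2 numbered columns per group, placed here with the group whose role their names show. Separate cultures are not stated for them, and p-values therefore cover only the spread between these libraries, which may be technical. The knockdown and overexpression columns name their target AK, which the labels do not explain. That AK stands for Ntoco was inferred from the roles of the groups. Among the rows, 0 carried the name Ntoco, and the level of the target was not checked.

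ADP-ribosylation is the transfer of ADP-ribose from NAD to proteins or nucleic acids. Parp1 and Parp2 build chains of it at broken DNA, and Parp3 adds single units there. Parp10, Parp11, Parp12 and Parp14 are known as mono-ADP-ribosyltransferases. Parp9 carries macrodomains that bind ADP-ribose, and its protein forms a heterodimer with Dtx3l, an E3 ubiquitin ligase of the Deltex family. Parp9, Dtx3l, Parp10, Parp11, Parp12 and Parp14 are known from mouse and human cells as genes that interferon induces.

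Parp14, Dtx3l and Parp9 lie side by side on mouse chromosome 16. In RefSeq (GRCm38) Parp14 (Entrez Gene 547253) spans chr16:35831892-35871518 on the minus strand. Dtx3l (Entrez Gene 209200) spans chr16:35926515-35939027 on the minus strand, and Parp9 (Entrez Gene 80285) spans chr16:35938470-35972621 on the plus strand. Dtx3l and Parp9 are head to head and share 558 bases at their starts, and 54996 bases separate Dtx3l from Parp14. In the GENCODE M21 models the shared stretch is 682 bases, all of them in Parp9 exons and 458 in Dtx3l exons. The strand setting of the counting is not given in the sources used here, so reads in that stretch cannot be told apart. The other members are scattered. Parp1 (Entrez Gene 11545) lies at chr1:180568891-180600999 (plus strand) and Parp2 (11546) at chr14:50807897-50821301 (plus strand). Parp3 (235587) lies at chr9:106470322-106476949 (minus strand) and Parp10 (671535) at chr15:76232995-76243440 (minus strand). Parp11 (101187) lies at chr6:127446830-127514233 (plus strand) and Parp12 (243771) at chr6:39086412-39118349 (minus strand).

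RefSeq promoter windows on GRCm38.p6, of 250 bases before and 50 bases after a start, were found by symbol for 6 of the 9 genes, with 7 windows in all. Parp9, Parp10 and Parp14 had none. Windows of 2 genes whose levels varied between libraries are shown, each read 5′ to 3′ on the strand of its gene. Capitals mark matches to the interferon-stimulated response element (ISRE, searched as GAAANNGAAA) and the gamma-activated site (GAS, searched as TTCNNNGAA), both sought on both strands. The Parp11 window is chr6:127446590-127446889 (plus strand) and the Dtx3l window is chr16:35938978-35939277 (minus strand).
Parp11: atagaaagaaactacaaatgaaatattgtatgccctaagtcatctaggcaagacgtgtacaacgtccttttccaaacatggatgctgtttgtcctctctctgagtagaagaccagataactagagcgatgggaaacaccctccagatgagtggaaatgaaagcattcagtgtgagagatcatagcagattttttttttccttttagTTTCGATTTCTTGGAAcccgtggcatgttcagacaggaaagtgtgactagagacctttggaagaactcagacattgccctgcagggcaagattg
Dtx3l: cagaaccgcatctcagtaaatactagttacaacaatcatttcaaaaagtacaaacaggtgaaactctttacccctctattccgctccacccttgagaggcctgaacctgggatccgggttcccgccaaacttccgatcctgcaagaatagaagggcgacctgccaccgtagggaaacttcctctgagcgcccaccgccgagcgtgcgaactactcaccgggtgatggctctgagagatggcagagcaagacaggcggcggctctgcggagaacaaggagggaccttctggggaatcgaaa
The Parp11 window held 1 ISRE match, on the strand opposite to the gene, and 1 GAS match that overlapped it. The ISRE match began 44 bases before the start and the GAS match 37 bases before it. Of 32851 RefSeq mouse promoter windows of this length, 3.44% held the ISRE letters and 8.30% the GAS letters. The second Parp11 window and the windows of Dtx3l, Parp1, Parp2, Parp3 and Parp12 held 0 matches to either, which says only that these letters are not in those windows. The Parp1 window held 4 GC boxes (GGGCGG, both strands), a motif found in 35.7% of windows. The Parp2 window and the second Parp11 window held 1 each. The Parp3 window and the second Parp11 window each held 1 CCAAT box (CCAAT, both strands), found in 37.4% of windows.

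Library totals lay between 18452588 and 19859041 counts, and 12115 of 16846 genes passed the low-count filter. By distance over the log2 counts relative to library size (CPM) of all tested genes, vector library 1 was the only one of the 8 whose nearest library was its partner. Overexpression library 2 lay nearest to vector library 2, and overexpression library 1 to knockdown library 1. For the 5 members that differed most between these libraries, overexpression results are therefore given with and without each of them, and other overexpression values with both. Neuronal markers were near 0. Their summed level over the 4 of 6 that had a row was 0.628 and 0.641 CPM in the knockdown, 0.979 and 1.16 CPM in the overexpression, 0.963 and 1.03 CPM in the vector and 0.890 and 0.571 CPM in the shRNA control libraries. Fibroblast markers were abundant, mainly through the collagen gene Col1a2, while Dcn was at or near 0 and Lum at 0 in all libraries. Their summed level was 4845 and 1464 CPM in the knockdown, 2341 and 2114 CPM in the overexpression, 1334 and 2316 CPM in the vector and 3393 and 3359 CPM in the shRNA control libraries. The neuronal label of the line was thus not reflected in these markers. Microglia and macrophage markers (6 of 6 with a row, Ptprc at 0 in all libraries) summed to 10.1 to 17.6 CPM, astrocyte markers (3 of 4) to 2.78 to 36.6 CPM, oligodendrocyte markers (3 of 4) to 9.25 to 13.0 CPM and endothelial markers (3 of 4) to 0.262 to 1.24 CPM.

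The chromosome 16 genes and Parp10 and Parp11 were high in both vector libraries and in overexpression library 2, and low in the other 5 libraries. Values below are CPM, scaled by TMM, for libraries 1 and 2 of each group in that order. Parp14, a large macrodomain protein that in mouse takes part in Stat6-dependent interleukin-4 signalling, had 19.6 and 14.4 CPM in the knockdown, 13.4 and 243 CPM in the overexpression, 276 and 382 CPM in the vector and 6.29 and 11.4 CPM in the shRNA control libraries. Its raw counts were 375 and 293 in the knockdown, 260 and 4404 in the overexpression, 5161 and 7419 in the vector and 120 and 219 in the shRNA control. The highest library, vector 2, held 60.8 times the CPM of the lowest, shRNA control 1, and the vector libraries overlapped with no other group.

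Parp9 had 30.7 and 18.3 CPM in the knockdown, 26.4 and 204 CPM in the overexpression, 124 and 250 CPM in the vector and 12.7 and 17.9 CPM in the shRNA control. Dtx3l, its binding partner, had 34.4 and 21.8 CPM in the knockdown, 22.3 and 141 CPM in the overexpression, 126 and 181 CPM in the vector and 17.5 and 21.2 CPM in the shRNA control. For both genes overexpression library 2 lay inside the vector range and overexpression library 1 inside the knockdown range. The ratio of the highest to the lowest library was 19.7 for Parp9 and 10.4 for Dtx3l.

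Parp10, a mono-ADP-ribosyltransferase that in human cells binds Myc, had 36.6 and 32.8 CPM in the knockdown, 23.5 and 133 CPM in the overexpression, 82.6 and 172 CPM in the vector and 20.8 and 27.1 CPM in the shRNA control. Parp11, which in mouse acts in shaping the sperm head, had 16.7 and 19.8 CPM in the knockdown, 23.8 and 56.0 CPM in the overexpression, 43.4 and 49.8 CPM in the vector and 14.7 and 20.5 CPM in the shRNA control. Parp11 had the narrowest range of the 5, with a highest-to-lowest ratio of 3.80 against 8.26 for Parp10, and its highest library was overexpression library 2. In GENCODE M21, 205 exonic bases of Parp10 lie within the span of Plec on the same strand, and exons of Plec were not checked.

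The 2 overexpression libraries differed by more than those of any other group for these 5 genes. The ratio of overexpression library 2 to library 1 was 18.1 for Parp14, 7.75 for Parp9, 6.34 for Dtx3l, 5.67 for Parp10 and 2.35 for Parp11. Between the vector libraries the same ratio was 1.38 for Parp14, 2.02 for Parp9, 1.44 for Dtx3l, 2.08 for Parp10 and 1.15 for Parp11.

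**Figure D1:**
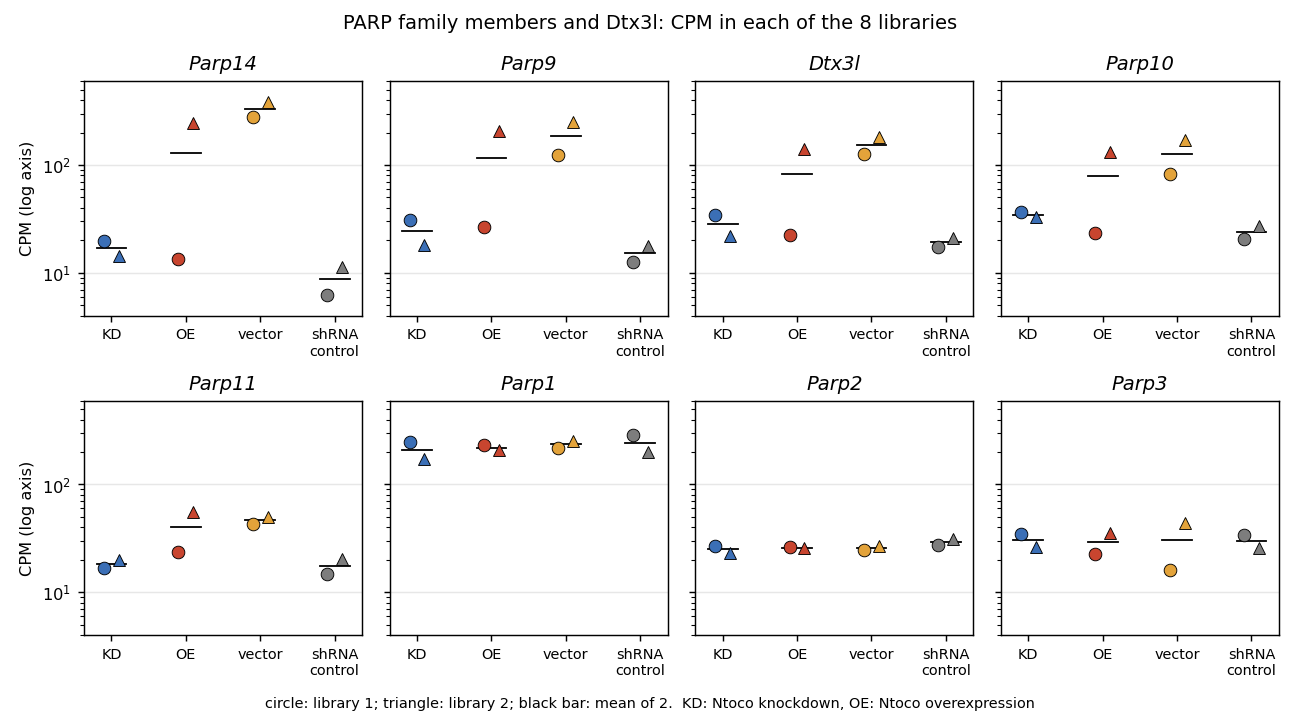
CPM (log axis) of the 8 detected genes in each library of the knockdown (KD), overexpression (OE), vector and shRNA control groups, with circles for library 1, triangles for library 2 and a bar for the mean of both. Parp14, Parp9, Dtx3l, Parp10 and Parp11 are high in both vector libraries and in overexpression library 2, while Parp1, Parp2 and Parp3 show no such split.

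The DNA-damage members did not follow this pattern. Parp1, the main sensor of DNA breaks in the family, had 245 and 173 CPM in the knockdown, 230 and 209 CPM in the overexpression, 218 and 255 CPM in the vector and 286 and 200 CPM in the shRNA control. Parp2, which shares part of the work of Parp1, had 27.0 and 23.0 CPM in the knockdown, 26.3 and 25.7 CPM in the overexpression, 24.9 and 27.1 CPM in the vector and 27.2 and 31.5 CPM in the shRNA control. Their highest and lowest libraries were 1.66-fold apart for Parp1 and 1.37-fold apart for Parp2. Parp3, which acts in the repair of double-strand breaks, had 34.6 and 26.1 CPM in the knockdown, 22.6 and 35.7 CPM in the overexpression, 16.3 and 44.3 CPM in the vector and 34.1 and 25.7 CPM in the shRNA control. Both its lowest and its highest library were vector libraries, 2.72-fold apart, so its spread lay within a group. In GENCODE M21, 791 exonic bases of Parp3 lie within the span of Rrp9 on the opposite strand. Whether they are also exonic in Rrp9 was not checked. Without the strand setting, any reads of Rrp9 there could not be told apart from those of Parp3.

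Parp12, an interferon-induced mono-ADP-ribosyltransferase with zinc fingers, was listed at 0 in all 8 libraries. A count of 0 over all libraries allows up to 0.0196 CPM, taking 3 counts as the limit and counting error only. Among all rows, 238 were at 0 in all libraries. Parp12 did not pass the low-count filter, so 8 of the 9 members were tested.

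Levels of different genes were set against each other as FPKM, which divides by gene length (mean ± SD, n = 2 each). In the knockdown the order was Parp1 at 58.9 ± 13.6, Parp2 at 13.5 ± 1.34, Parp10 at 10.6 ± 0.648, Parp3 at 9.49 ± 1.73, Parp9 at 6.45 ± 2.22, Dtx3l at 5.60 ± 1.69, Parp11 at 3.31 ± 0.448 and Parp14 at 2.12 ± 0.422 FPKM. In that order the library ranges overlapped between Parp10 and Parp3 and between Parp9 and Dtx3l, and the other neighbours did not overlap. In the overexpression Parp1 stood first at 58.8 ± 3.72 FPKM. There it was followed by Parp9 at 29.0 ± 31.6, Parp10 at 22.7 ± 22.5, Dtx3l at 15.5 ± 16, Parp14 at 15.2 ± 19.2, Parp2 at 13.3 ± 0.197, Parp3 at 8.67 ± 2.80 and Parp11 at 6.88 ± 3.94 FPKM. The SD exceeded the mean for Parp9, Dtx3l and Parp14 in that group. Parp9, Parp10, Dtx3l, Parp14 and Parp2 overlapped with their neighbours in the order, as did Parp3 and Parp11.

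In the vector libraries Parp1 at 63.0 ± 8.42 FPKM was followed by Parp9 at 46.7 ± 23.3, Parp14 at 38.7 ± 9.77, Parp10 at 36.6 ± 19.0 and Dtx3l at 28.9 ± 8.05 FPKM, each overlapping with the next. Parp2 at 13.2 ± 1.12, Parp3 at 8.99 ± 6.06 and Parp11 at 7.97 ± 0.973 FPKM lay below all of these and overlapped with their neighbours in the order. In the shRNA control the order was Parp1 at 67.2 ± 15.2, Parp2 at 15.6 ± 2.0, Parp3 at 9.19 ± 1.58, Parp10 at 7.18 ± 1.52, Parp9 at 3.97 ± 1.06, Dtx3l at 3.80 ± 0.618, Parp11 at 3.15 ± 0.813 and Parp14 at 1.09 ± 0.468 FPKM. Parp3 overlapped with Parp10 there, Parp9 with Dtx3l and Dtx3l with Parp11. Parp14 was the lowest of the 8 detected genes in the knockdown and the shRNA control, and among the vector libraries only Parp1 and Parp9 had a higher mean.

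When the empty vector was compared with the control shRNA, 5 members stood higher in both vector libraries. The log2 ratio was 5.22 (SE 1.17) for Parp14, 3.61 (SE 0.88) for Parp9, 2.99 (SE 0.74) for Dtx3l, 2.41 (SE 0.72) for Parp10 and 1.40 (SE 0.39) for Parp11. These are fitted folds of 37.3 for Parp14, 12.2 for Parp9, 7.94 for Dtx3l, 5.31 for Parp10 and 2.65 for Parp11. With edgeR's quasi-likelihood test over 4 groups, 0 of the 8 tested members passed an adjusted p of 0.05, and the share of all 12115 genes that passed was 0%. The adjusted p was 0.337 for Parp14, Parp9, Dtx3l and Parp11 and 0.350 for Parp10, and the lowest of any gene was 0.159. At an unadjusted p under 0.05 there were 5 members, all higher, where 12.5% of all genes passed. Their unadjusted p in edgeR was 0.00221 for Parp14, 0.00345 for Parp9, 0.00400 for Dtx3l, 0.00751 for Parp11 and 0.0103 for Parp10.

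The call for these 5 genes depended on the test. DESeq2's Wald test called 5 of 8 members, all higher, against 2.37% of 11880 genes. Its adjusted p was 0.000522 for Dtx3l, 0.00344 for Parp14, 0.00979 for Parp10, 0.0227 for Parp9 and 0.0332 for Parp11. With only the vector and shRNA control libraries in the edgeR model, 3 members passed, Parp14 (adjusted p 0.00375), Dtx3l (adjusted p 0.00508) and Parp9 (adjusted p 0.0117), against 1.08% of 11865 genes. Leaving out any of the 4 libraries kept each of the 5 higher in the vector. Parp14 then had log2 ratios of 4.85 to 5.71, Parp9 of 3.02 to 4.03, Dtx3l of 2.70 to 3.23, Parp10 of 1.79 to 2.84 and Parp11 of 1.18 to 1.66.

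Parp1, Parp2 and Parp3 had log2 ratios near 0 in the same comparison: -0.04 (SE 0.25) for Parp1, -0.17 (SE 0.21) for Parp2 and 0.02 (SE 0.46) for Parp3. Parp2 lay lower in both vector libraries than in both shRNA control libraries, 1 of 8 members where 26.5% of all genes did so. The 5 members higher in both vector libraries compare with 24.6% of all genes. The median log2 ratio was 1.91 over the 8 tested members and -0.0029 over all tested genes. Marker sums also differed between these groups. Astrocyte markers summed to 2.78 and 13.1 CPM in the vector and 22.4 and 23.2 CPM in the shRNA control libraries, and microglia and macrophage markers to 13.2 and 14.5 CPM in the vector and 16.7 and 17.6 CPM in the shRNA control libraries. Fibroblast sums were lower in both vector libraries too, and endothelial and neuronal sums were higher in both and near 1 CPM or below. The astrocyte sum was mostly Aldh1l1, at 1.55 and 12.3 CPM in the vector and 21.8 and 22.3 CPM in the shRNA control libraries. Gfap overlapped between these groups (1.18 and 0.670 against 0.524 and 0.727 CPM), and Slc1a3 was near 0 in both. The part of these markers in the result was not tested. In bulk RNA a smaller number of cells of a kind and less RNA per cell cannot be told apart. The route of delivery may differ between the 2 control arms and cannot be told apart from this difference.

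**Figure D2:**
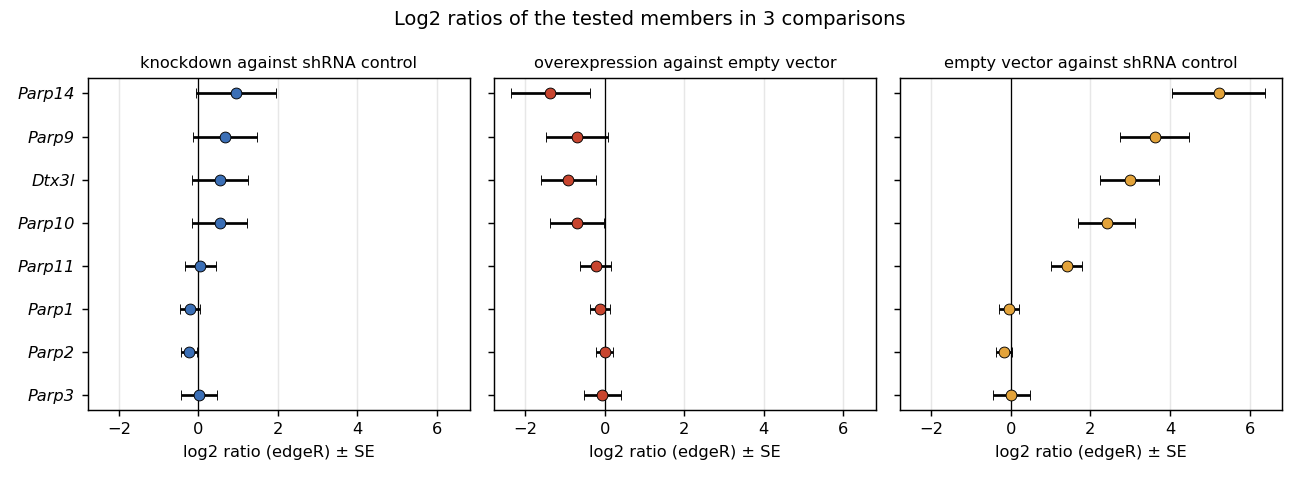
Log2 ratios of the 8 tested genes from edgeR, with SE as bars, in 3 panels, with the knockdown over its shRNA control, the overexpression over its vector, and the vector over the shRNA control. The ratios reach 5.22 (Parp14) in the vector comparison and stay between -1.36 and 0.95 in the other 2 comparisons.

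In overexpressing cells against vector cells, the 8 tested members had log2 ratios below 0. The log2 ratio was -1.36 (SE 0.99) for Parp14, -0.91 (SE 0.69) for Dtx3l, -0.70 (SE 0.68) for Parp10, -0.70 (SE 0.79) for Parp9 and -0.22 (SE 0.38) for Parp11. It was -0.11 (SE 0.25) for Parp1, -0.05 (SE 0.46) for Parp3 and -0.0013 (SE 0.21) for Parp2. In edgeR 0 members passed, with adjusted p from 0.638 for Parp14 to 0.998 for Parp2, as did 0% of all genes. At an unadjusted p under 0.05 there were 0 members against 7.62% of all genes. DESeq2 called 0 members against 0.00876% of 11410 genes. Parp14 was the member with both overexpression libraries below both vector libraries, 1 of 8 where 23.1% of all genes were. On the higher side there were 0 members, against 24.1% of all genes. The median over the tested members was -0.46, against -0.0059 over all genes. Astrocyte markers summed to 22.2 and 16.2 CPM in the overexpression and 2.78 and 13.1 CPM in the vector libraries. That sum was mostly Aldh1l1 (21.5 and 15.3 against 1.55 and 12.3 CPM), and Gfap was lower in both overexpression libraries. Microglia and macrophage markers summed to 10.1 and 10.2 CPM in the overexpression and 13.2 and 14.5 CPM in the vector libraries. Cd68 was lower in both overexpression libraries (4.84 and 6.01 against 11.6 and 10.6 CPM). Csf1r was higher in both (3.30 and 2.76 against 0.642 and 2.32 CPM), and Cx3cr1 overlapped. The sums of the other 4 marker lists overlapped between these groups, and the part of the markers in the result was not tested.

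These values turned on which overexpression library was used. Without overexpression library 2, the log2 ratio against the vector was -4.62 for Parp14 (SE 0.52, adjusted p 0.0337 in edgeR), -2.82 for Parp9, -2.78 for Dtx3l, -2.43 for Parp10 and -0.96 for Parp11. Parp14 then passed, as 1 of 25 genes and 0.201% of the 12419 tested, with the lone overexpression library assumed to vary like the other groups. The adjusted p was 0.0760 for Dtx3l, 0.206 for Parp9, 0.209 for Parp10 and 0.568 for Parp11. Without overexpression library 1, the log2 ratio was -0.44 for Parp14, -0.12 for Dtx3l, 0.13 for Parp9, 0.07 for Parp10 and 0.27 for Parp11, and the adjusted p was 0.998 for each of them.

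**Figure D3:**
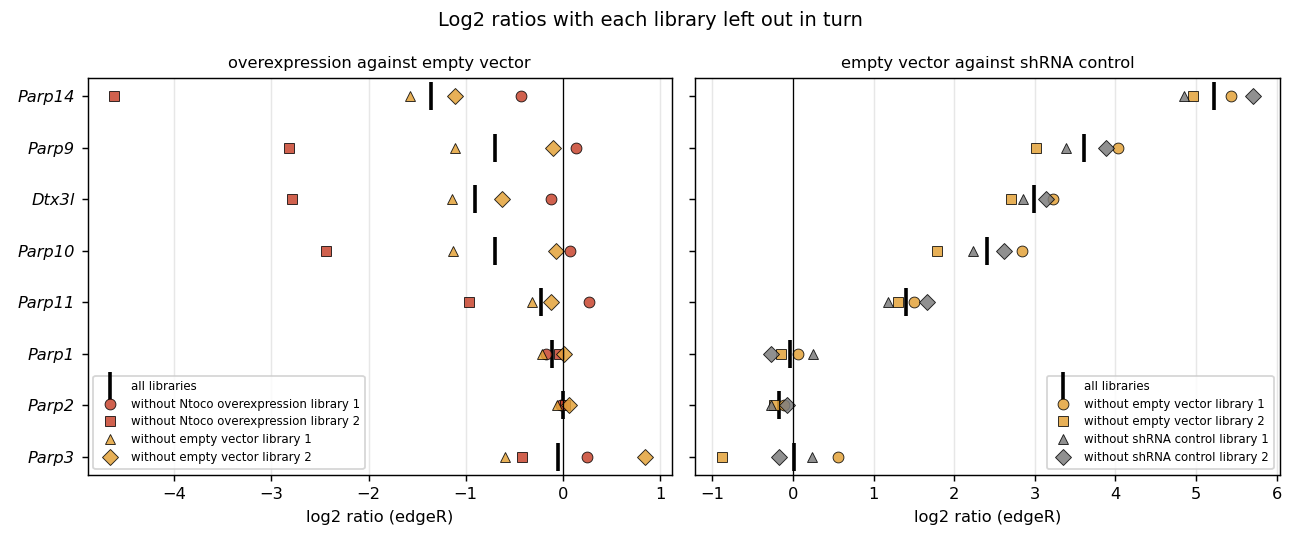
Log2 ratios of the 8 tested genes with all libraries (black ticks) and with each library of a comparison left out in turn (symbols), with the overexpression over its vector on the left and the vector over the shRNA control on the right. Leaving out overexpression library 2 takes Parp14 to -4.62 on the left, while on the right Parp14 stays between 4.85 and 5.71.

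In knockdown cells against shRNA control cells, Parp14, Parp9, Dtx3l and Parp10 were higher in both knockdown libraries by less than their errors. The log2 ratio was 0.95 (SE 1.01) for Parp14, 0.68 (SE 0.80) for Parp9, 0.54 (SE 0.70) for Dtx3l and 0.54 (SE 0.69) for Parp10. It was 0.05 (SE 0.39) for Parp11, 0.02 (SE 0.46) for Parp3, -0.22 (SE 0.25) for Parp1 and -0.23 (SE 0.21) for Parp2. With edgeR 0 members passed (adjusted p 0.992 to 0.998), as did 0% of all genes. At an unadjusted p under 0.05 there were 0 members against 3.12% of all genes, and DESeq2 called 0 members against 0.124%. The 4 members higher in both knockdown libraries compare with 15.1% of all genes, and Parp2, lower in both, with 14.1%. The median over the tested members was 0.29, against 0.0055 over all genes. Microglia and macrophage markers summed to 12.1 and 15.7 CPM in the knockdown and 16.7 and 17.6 CPM in the shRNA control libraries, and oligodendrocyte markers to 11.0 and 10.5 CPM in the knockdown and 13.0 and 11.6 CPM in the shRNA control libraries. The other 4 sums overlapped, and the part of the markers in the result was not tested. The knockdown and vector comparisons share the shRNA control libraries, which were the lowest pair for Parp14, Parp9 and Dtx3l.

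The overexpression effect minus the knockdown effect was a log2 value of -2.31 (SE 1.41) for Parp14, -1.45 (SE 0.98) for Dtx3l, -1.38 (SE 1.13) for Parp9 and -1.24 (SE 0.97) for Parp10. It lay between -0.27 and 0.23 for Parp11, Parp3, Parp1 and Parp2. In edgeR 0 members passed, with adjusted p of 0.650 for Parp14 and 0.662 for Dtx3l, as did 0% of all genes. At an unadjusted p under 0.05 there were 0 members against 6.92% of all genes, and DESeq2 called 0 members against 0.125%. The median over the tested members was -0.75, against -0.022 over all genes. Without overexpression library 2 the value was -5.56 for Parp14 (adjusted p 0.0570 in edgeR), -3.32 for Dtx3l, -3.50 for Parp9, -2.97 for Parp10 and -1.01 for Parp11. Without overexpression library 1 it was -1.38 for Parp14, -0.66 for Dtx3l, -0.55 for Parp9, -0.47 for Parp10 and 0.22 for Parp11.

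The 3 neighbours on chromosome 16 were set against the genes beside them, chosen by position. Hspbap1, on the far side of Parp14, had a log2 ratio of 0.56 (SE 0.24) in the vector against the shRNA control. Kpna1, an importin gene beyond Parp9, had 0.38 (SE 0.30), and Wdr5b had -0.07 (SE 0.38). These flanking genes thus had smaller ratios than Parp14, Dtx3l and Parp9. In edgeR 0 of them passed, as did 0% of all genes, with adjusted p of 0.402 for Hspbap1, 0.562 for Kpna1 and 0.944 for Wdr5b. Just beyond Wdr5b, Fam162a had a log2 ratio of 1.20 (SE 0.44, adjusted p 0.367 in edgeR). The difference between members and flanking genes was not tested. Against the vector, overexpressing cells had log2 ratios of -0.40 (SE 0.24) for Hspbap1, -0.15 (SE 0.30) for Kpna1 and 0.20 (SE 0.38) for Wdr5b.

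**Figure D4:**
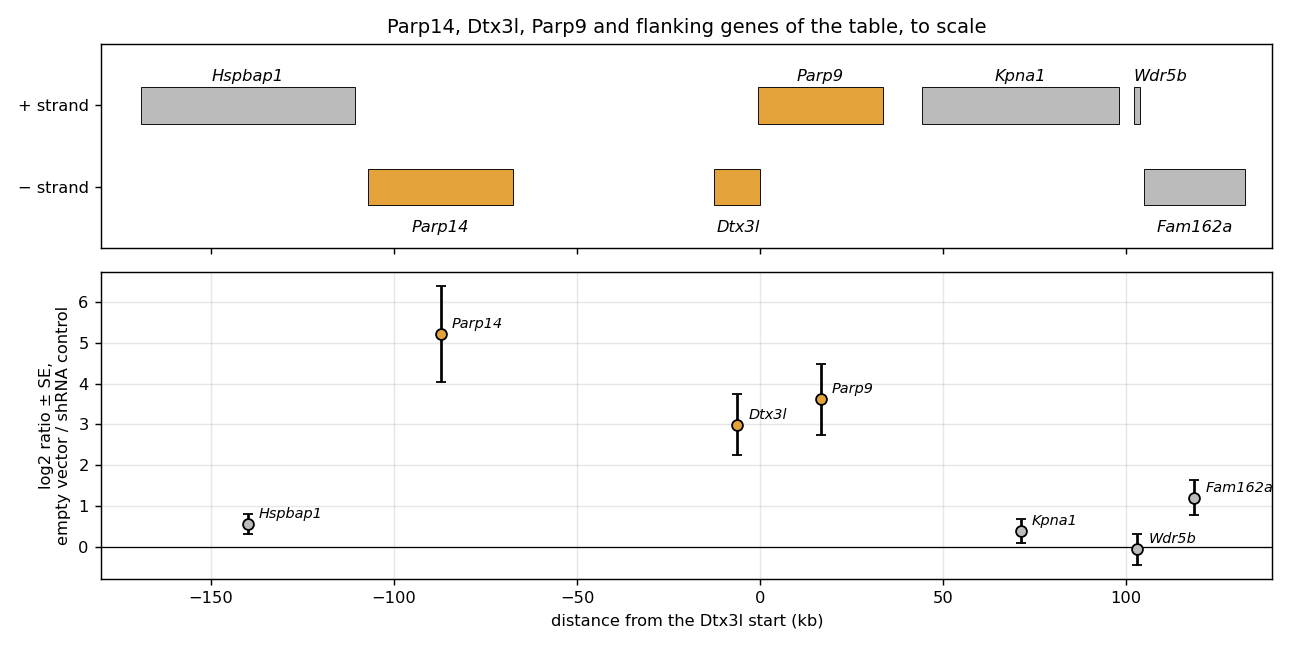
Above, the genes of the table around Dtx3l on mouse chromosome 16 by strand, to scale in kb from the Dtx3l start. Below, their edgeR log2 ratios for empty vector against shRNA control with SE, from 2.99 (Dtx3l) to 5.22 (Parp14) for the members and from -0.07 (Wdr5b) to 1.20 (Fam162a) for the flanking genes.

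Across the 8 libraries the 5 variable genes followed each other. Pearson's r of log2 CPM was 0.994 for Parp14 with Dtx3l, 0.990 for Parp9 with Dtx3l and 0.985 for Parp9 with Parp14. With Dtx3l it was 0.980 for Parp10 and 0.937 for Parp11, although these genes lie on other chromosomes. With Parp1, Parp2 or Parp3 these 5 genes had r between -0.241 and 0.299. Parp1, Parp2 and Parp3 had r of 0.214 to 0.418 with each other. These are descriptions over 8 points that fall into high and low libraries and share library size scaling, and no p is attached.

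By the same measure the genes most like Parp14 over the 8 libraries were Ifih1, a sensor of double-stranded RNA (r = 0.997), the RNA sensor gene Ddx58 (r = 0.996) and the immunity-related GTPase gene Igtp (r = 0.995). Ifih1 had 12.3 and 12.8 CPM in the knockdown, 10.3 and 135 CPM in the overexpression, 172 and 179 CPM in the vector and 5.39 and 8.51 CPM in the shRNA control. For Dtx3l they included Gbp9 (r = 0.994) and Parp14. For Parp9 they were Trim30a (r = 0.994), Ddx58 (r = 0.993) and Gbp2 (r = 0.993). Parp10 was nearest to Gbp2b, Heatr9 and Slfn5 (r = 0.991 each), and Parp11 to Ifi211 (r = 0.993), Oas1g (r = 0.986) and H2-T24 (r = 0.985). Heatr9 reached at most 2.37 CPM and H2-T24 at most 6.03 CPM. Both were at or near 0 in the knockdown and shRNA control libraries. The nearest patterns to Parp1 were Frmd4a (r = 0.971), Prkca (r = 0.959) and Cobll1 (r = 0.958). To Parp2 they were Bicral (r = 0.967), Myh3 (r = 0.951, at most 1.51 CPM) and Tln2 (r = 0.945), and to Parp3 they were Bche (r = 0.920), Ltbp2 (r = 0.919) and Cntnap4 (r = 0.906).

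Genes of interferon signalling varied between the same libraries. Irf9, a transcription factor that binds the ISRE as part of a complex, had 15.4 and 15 CPM in the knockdown, 27.1 and 119 CPM in the overexpression, 143 and 198 CPM in the vector and 8.75 and 10.8 CPM in the shRNA control. As for the members, its vector libraries and overexpression library 2 were the high ones. Of the 9 listed genes 9 were tested and 0 passed in edgeR in any comparison, as did 0% of all genes. The list was chosen with earlier results of these data known, so its shares and medians are descriptions and not a test. At an unadjusted p under 0.05 there were 5 of 9, all higher, in the vector comparison, against 12.5% of all genes. There were 0 in the knockdown and the overexpression, against 3.12% and 7.62% of all genes, and 1 for the difference of effects (Irf1, lower), against 6.92%. In the vector comparison 6 of 9 lay higher in both vector libraries than in both shRNA control libraries, against 24.6% of all genes. DESeq2 called Irf7, Irf9, Stat2 and Irf1 higher in that comparison, where it called 2.37% of 11880 genes. Their edgeR log2 ratios there were 5.75 (SE 1.65) for Irf7, 4.12 (SE 0.64) for Irf9, 3.05 (SE 0.77) for Stat2 and 2.18 (SE 0.43) for Irf1. The log2 ratio was 0.13 (SE 0.19) for the receptor gene Ifnar1, 0.29 (SE 0.21) for the receptor gene Ifnar2, 0.02 (SE 0.18) for the kinase gene Jak1 and -0.56 (SE 0.36) for the kinase gene Tyk2. The list's median was 2.18 there, -0.48 in the overexpression against the vector and 0.29 in the knockdown against the shRNA control.

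Of 8 further PARP family genes, 7 had a row and were tested, and 0 passed in edgeR in any comparison, as did 0% of all genes. DESeq2 called 1 of the 7 in the vector comparison, against 2.37% of 11880 genes. Genes with an unadjusted p under 0.05 numbered 0 in the knockdown, against 3.12% of all genes, and 2 in the overexpression (both lower), against 7.62%. There were 3 in the vector comparison (all higher), against 12.5% of all genes, and 3 for the difference of effects (Parp4, Tnks and Zc3hav1, all lower), against 6.92%. Zc3hav1, a catalytically inactive PARP that binds viral RNA, had 233 and 317 CPM in the knockdown, 238 and 268 CPM in the overexpression, 448 and 592 CPM in the vector and 185 and 287 CPM in the shRNA control. Both of its vector libraries lay above the other 6 libraries, and overexpression library 2 was not among the high ones, unlike for Parp14. Its log2 ratio was -1.04 (SE 0.28, adjusted p 0.598 in edgeR) in the overexpression against the vector and 1.14 (SE 0.28, adjusted p 0.337) in the vector against the shRNA control, where DESeq2 called it higher. Parp4, the PARP of the vault particle, had 29.1 and 39.6 CPM in the knockdown, 13.1 and 20.4 CPM in the overexpression, 37.6 and 34.9 CPM in the vector and 17.8 and 24.9 CPM in the shRNA control. The log2 ratio of Parp4 was -1.12 (SE 0.30) in the overexpression against the vector, with an edgeR adjusted p of 0.598. Its overexpression effect minus its knockdown effect was -1.81 (SE 0.43, adjusted p 0.650 in edgeR). The median of the 7 genes was 0.07 in the knockdown, -0.50 in the overexpression and 0.40 in the vector comparison.

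Genes that remove or read ADP-ribose, that work with Parp1 and Parp2 or that supply NAD had medians between -0.07 and 0.20 in these 3 comparisons. The 8 tested of 9 removal and reading genes, among them the hydrolase gene Parg, had medians of 0.20 in the knockdown, 0.14 in the overexpression and 0.16 in the vector comparison. Parg itself had a log2 ratio of -0.08 (SE 0.17) in the vector against the shRNA control. The 7 repair partners had medians of 0.10 in the knockdown, 0.05 in the overexpression and 0.20 in the vector comparison, with Xrcc1, the scaffold of single-strand break repair, at -0.35 (SE 0.25) in the last. Of 11 genes of NAD supply and use, 10 had a row and 7 were tested, with medians of 0.10 in the knockdown, 0.04 in the overexpression and -0.07 in the vector comparison. In these 3 lists 0 genes passed in edgeR in any comparison, as did 0% of all genes. DESeq2 called 1, Nampt, in the vector comparison, where it called 2.37% of 11880 genes. With an unadjusted edgeR p under 0.05 there was 1 removal gene, Adprh (higher), in the knockdown, against 3.12% of all genes. The overexpression had 1 repair partner, Hpf1 (higher), against 7.62% of all genes. The vector comparison had 2 NAD genes, Nampt (higher) and Sarm1 (lower, log2 ratio -1.19, SE 0.47), against 12.5%. The difference of effects had Adprh (lower), against 6.92%. That difference contains the knockdown effect of Adprh with its sign turned, so it is not a separate result.

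Nampt, the rate-limiting enzyme of NAD salvage, had 186 and 269 CPM in the knockdown, 376 and 385 CPM in the overexpression, 412 and 360 CPM in the vector and 210 and 215 CPM in the shRNA control. Both overexpression libraries lay inside the vector range, unlike for Parp14. The vector to shRNA control log2 ratio of Nampt was 0.86 (SE 0.21, adjusted p 0.337 in edgeR), and DESeq2 called it higher. Among 4 Deltex relatives of Dtx3l, 3 were tested and 0 passed in edgeR, as did 0% of all genes. DESeq2 called 0 of them in any comparison, where in the vector comparison it called 2.37% of 11880 genes. Of these 3, 0 lay higher in both vector libraries, against 24.6% of all genes, and 2 lay lower in both, against 26.5%. Dtx4, an E3 ligase of that family, had a log2 ratio of -0.90 (SE 0.26, adjusted p 0.345 in edgeR) in the vector against the shRNA control, where Dtx3l had 2.99. Dtx4 was the 1 Deltex relative of 3 with an unadjusted edgeR p under 0.05 in that comparison, against 12.5% of all genes. For the difference of effects Dtx4 (log2 value 0.93, SE 0.37) was also the 1 of 3 with such a p, against 6.92% of all genes.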

How the data were processed

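The members and gene lists were chosen with earlier results of these data known. The authors deposited whole-number counts per gene, not normalized, and FPKM values. In 12615 of 12615 genes counted in all libraries FPKM was the count over 1 whole gene length and the sum of listed counts (tolerance 0.01). Per the submitters' processing notes, the tools included Trimmomatic, HISAT2, Cufflinks, HTSeq and DESeq, with build mm10. Versions and the strand setting: not given in the sources used here. Per the labels' protocols, TRIzol and the TruSeq Stranded mRNA LT kit were used.

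Counts were filtered with filterByExpr (minimum count 10) and scaled by TMM. Groups were compared by the quasi-likelihood F-test of edgeR on all 4 groups in 1 model (4 residual and 3.85 prior degrees of freedom, biological coefficient of variation 28.0%), with Benjamini-Hochberg adjustment over all tested genes and a threshold of 0.05. DESeq2's Wald test, RLE size factors, no filter, a model of the compared groups alone, a replicate block and leaving out each library were alternatives, and length-scaled TMM counts were an alternative for levels. Correlations used log2 CPM with a prior count of 2, and the 3 nearest patterns per member were named. From each list the genes past the test were named, otherwise at most the 3 with the largest absolute log2 ratio of a comparison. Parg, Ifnar1, Ifnar2, Jak1 and Tyk2 were named beyond that rule after their values were seen, and flanking genes by position. Stat2 and Irf1 met the rule in other comparisons but not in the vector comparison. Their ratios in the vector comparison were added after being seen. A gene that these rules would name is not reported here. Libraries held 18452588 to 19859041 counts. The SE beside a log2 ratio came from the edgeR fit that gave the ratio. It is pooled over the groups in the model and, through the prior degrees of freedom, moderated across genes. Only the SD of FPKM was computed from the 2 values of each group. The edgeR step was tested on simulated data. Versions were Python 3.11.15, pandas 2.3.3, numpy 2.4.6, matplotlib 3.10.9, edgeR 4.0.16, DESeq2 1.42.0, limma 3.58.1 and R 4.3.3.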

Additional observations from a re-analysis of the deposited data

How the results depend on the processing

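Where edgeR called 0 genes over all 4 groups, DESeq2 called 15 genes in the knockdown, 1 in the overexpression and 281 in the vector comparison, and 14 for the difference of effects. Fitted to the compared groups alone, edgeR called 1 gene in the overexpression and 128 in the vector comparison, and without a low-count filter 3 in the vector comparison. Leaving out 1 library gave 0 to 1 calls in the knockdown comparison and for the difference (1 without knockdown library 1), and 0 to 25 in the overexpression comparison (25 without overexpression library 2). The libraries share only a number, with correlations of same-numbered deviations of 0.357 between knockdown and shRNA control, -0.216 between overexpression and vector and -0.124 between vector and shRNA control. The replicate block gave 0 calls in all 4 comparisons. With vector numbers crossed, a pairing added after seeing the data, it gave 1 call in the vector comparison. Under the block Parp3 turned to -0.079 in the vector comparison, and with crossed numbers to -0.049 there, 0.079 in the overexpression and 0.061 for the difference.

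Of 344 alternatives over the members' log2 ratios, 306 kept direction and call, 29 turned direction and 9 gained a call. With a library left out, Parp1 ranged from -0.50 to 0.063, Parp3 from -0.21 to 0.24 and Parp11 from -0.17 to 0.30 in the knockdown comparison. In the overexpression comparison Parp1 ranged from -0.21 to 0.0079, Parp2 from -0.058 to 0.062, Parp3 from -0.60 to 0.84, Parp9 from -2.82 to 0.13, Parp10 from -2.43 to 0.069 and Parp11 from -0.96 to 0.27. In the vector comparison Parp1 ranged from -0.28 to 0.24 and Parp3 from -0.88 to 0.56. For the difference Parp1 ranged from -0.17 to 0.39, Parp3 from -0.62 to 0.83 and Parp11 from -1.01 to 0.22. The cause of these changes was not tested. Of 32 FPKM levels, 1 moved by more than its SD under TMM scaling. Precision was limited by 2 libraries per group, and the Parp12 bound by depth.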
